A study of Homo sapiens with 4 samples.

Results

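The genes described here are 37 that act in homologous recombination, the Fanconi anaemia pathway, mismatch repair or the checkpoint kinases that respond to broken or stalled DNA. They were chosen by gene symbol from a list of names, and all 37 had a row among the 15562 genes of the count and FPKM tables. The cells were H1975, an established human line from a lung adenocarcinoma, labelled wild type, so each group is the same line in a different atmosphere and no allele or agent differs between them. The groups were cells kept for 24 h in normoxia with 5% CO2, for which the sources used here give no oxygen level, and cells kept for 24 h in hypoxia with 1% O2, 5% CO2 and 94% N2. Each group had 1 RNA-seq library, of 17643836 counts in normoxia and 18943320 in hypoxia. There are no replicates, so no difference was tested against the spread between cultures. Values are read counts per gene, and each ratio of hypoxia to normoxia, after scaling by the trimmed mean of M values (TMM), is given with the exact 95% interval that counting error alone allows. Without molecular identifiers reads cannot be counted as molecules, so the intervals are too narrow.

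Homologous recombination repairs a broken chromosome, or a collapsed replication fork, by copying the sister chromatid. The broken ends are resected to single strands, BRCA1 with BARD1 and then PALB2 with BRCA2 load the recombinase, and paralogs of the recombinase and motor proteins of the RAD54 family help it find and invade the intact copy. The Fanconi pathway acts when both strands are crosslinked: a core complex ubiquitylates the FANCD2-FANCI pair, which brings in nucleases and the recombination machinery. Mismatch repair removes misincorporated bases, and ATM, ATR, CHEK1 and CHEK2 signal that DNA is damaged. Many of these genes are transcribed mainly in S phase, and several are known to be lowered in hypoxic cells.

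The labels were checked first against genes that hypoxia-inducible factors are known to activate. Of 12 such genes, 11 had an interval wholly above a ratio of 1, and the median log2 ratio of the 12 was 0.64. NDRG1, with 1958 counts in normoxia and 5214 in hypoxia, was highest at 1.32 and the only one past a ratio of 2. CA9 was at 0.51 (0.38 to 0.65) and VEGFA at 0.65 (0.58 to 0.73). Of 8 markers of lung epithelial carcinoma all were present, at 9.11 FPKM or more in normoxia. Over the endothelial markers in the table the highest level in normoxia was 1.00 FPKM (CDH5), and PTPRC, which marks leukocytes, had 0 counts in normoxia and 2 in hypoxia. COL1A1 (15.1 FPKM) and CD14 (14.9 FPKM) stood higher than the other fibroblast and leukocyte markers in normoxia, and the part of these markers in any result was not tested.

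The repair genes differed little between the libraries, and in both directions. All 37 passed the filter of 1 CPM (counts scaled to library size) in both libraries. The median log2 ratio over them was 0.02, against 0.00 over all 12725 genes kept, and 20 of the 37 lay above 0 and 17 below. The interval lay wholly below a ratio of 1 for 8 of the 37 (21.6%), against 14.0% of all genes kept. It lay wholly above 1 for 4 (10.8%), against 15.0%. Because an interval narrows with depth, the same shares were taken over the 9571 genes whose count in normoxia lay within the range of these 37, and they were 13.3% and 14.1%. The remaining 25 genes had intervals that span 1. Only BRIP1 lay beyond a log2 ratio of 0.32 either way with an interval that excludes 0, against 3.29% of genes lower and 3.41% higher by that rule. None of the 37 passed a ratio of 2, against 0.44% and 0.472%. These shares describe 2 libraries, and no test sets the members apart from other genes.

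**Figure D1:**
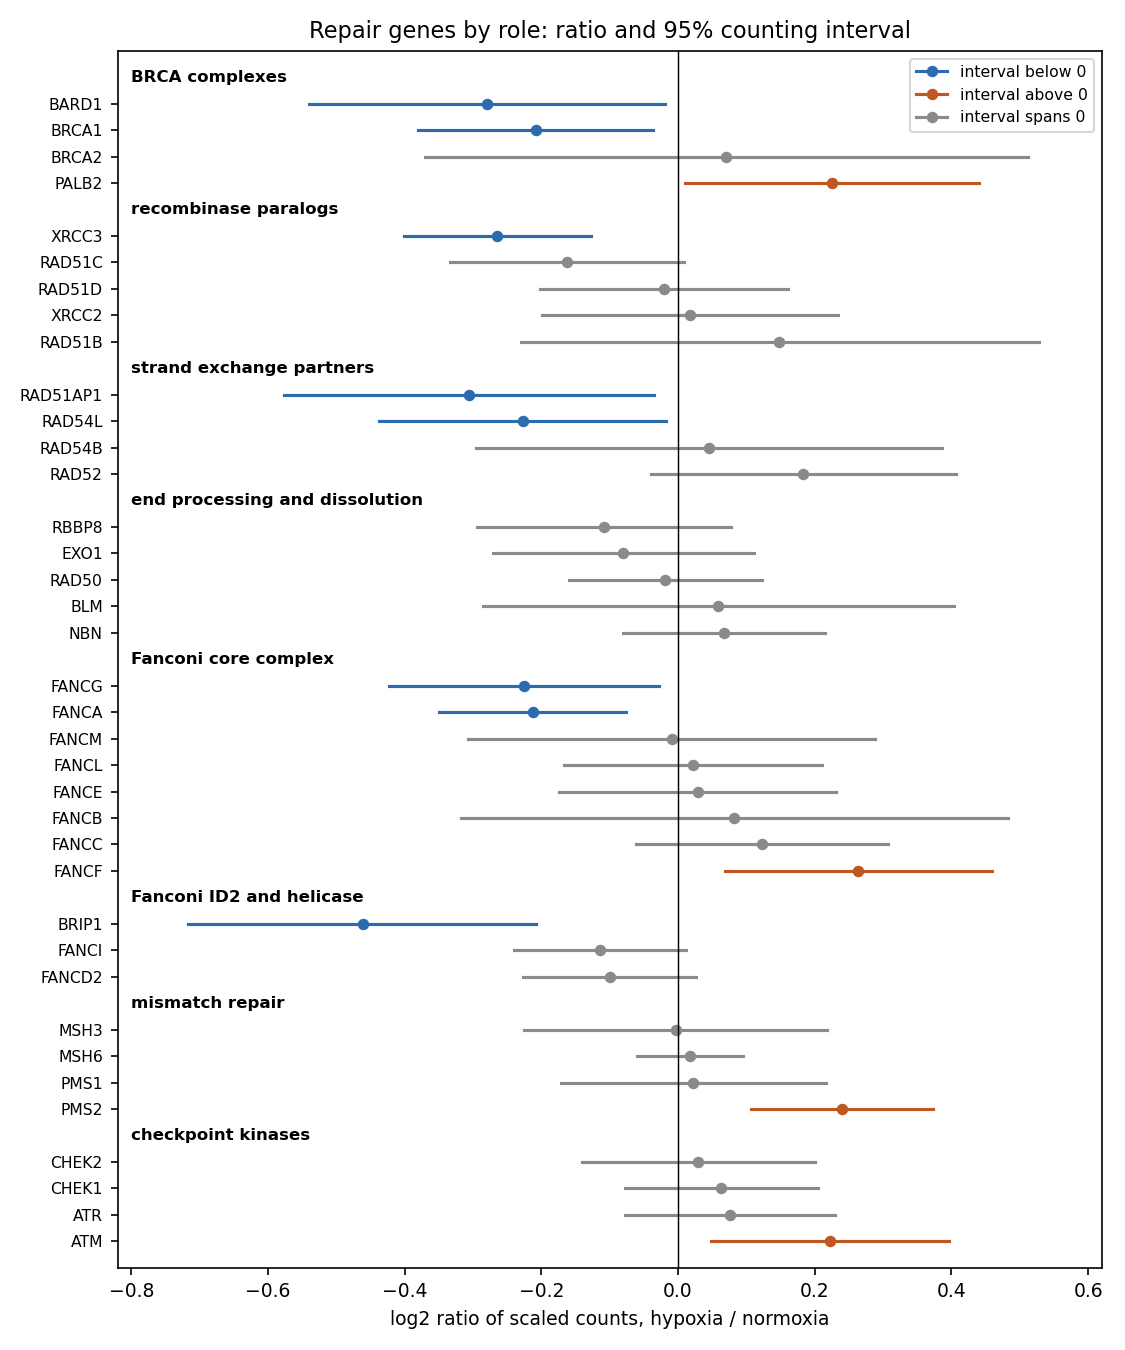
Log2 ratio of TMM-scaled counts, hypoxia over normoxia, for each repair gene (points) with its 95% counting interval (lines), grouped by role on the y axis and with 1 library per condition. The interval is wholly below 0 for 8 genes, with BRIP1 lowest at -0.46, and wholly above 0 for 4, with FANCF highest at 0.26.

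The promoters of BRIP1 and PMS2, the genes whose intervals lay farthest from a ratio of 1 on each side, are shown because they let a reader compare genes that moved in opposite directions. XRCC3, BRCA1 and FANCF were added after their values were seen. Each sequence is the 250 bases before an annotated start in RefSeq (GRCh38.p14), read in the direction of the gene, at chr17:61863529-61863778, chr7:6009050-6009299, chr14:103715452-103715701, chr17:43125365-43125614 and chr11:22625824-22626073, all on the minus strand. PMS2 and BRCA1 have 2 annotated starts each, and the start with the most CCAAT matches before it was taken. The window at the other BRCA1 start, 43170327, holds 0 CCAAT matches. Capitals mark CCAAT, the letters bound by the factor NF-Y, and TTTGAA, the core of the cell cycle homology region, on either strand (CCAAT reads ATTGG and TTTGAA reads TTCAAA on the other).
BRIP1: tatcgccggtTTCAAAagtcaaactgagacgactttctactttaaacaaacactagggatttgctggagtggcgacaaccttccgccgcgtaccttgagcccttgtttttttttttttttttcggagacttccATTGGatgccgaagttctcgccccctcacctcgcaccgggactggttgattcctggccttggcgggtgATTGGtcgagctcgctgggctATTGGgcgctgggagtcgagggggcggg
PMS2: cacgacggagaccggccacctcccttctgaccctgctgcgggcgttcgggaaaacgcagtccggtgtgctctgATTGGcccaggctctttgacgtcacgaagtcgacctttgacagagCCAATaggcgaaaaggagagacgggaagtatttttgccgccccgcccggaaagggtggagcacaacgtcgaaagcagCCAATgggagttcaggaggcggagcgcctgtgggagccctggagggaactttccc
XRCC3: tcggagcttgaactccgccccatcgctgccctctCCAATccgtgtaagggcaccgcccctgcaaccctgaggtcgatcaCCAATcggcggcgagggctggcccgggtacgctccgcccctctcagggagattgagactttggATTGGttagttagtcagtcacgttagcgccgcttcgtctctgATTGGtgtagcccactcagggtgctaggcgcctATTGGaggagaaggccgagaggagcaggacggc
BRCA1: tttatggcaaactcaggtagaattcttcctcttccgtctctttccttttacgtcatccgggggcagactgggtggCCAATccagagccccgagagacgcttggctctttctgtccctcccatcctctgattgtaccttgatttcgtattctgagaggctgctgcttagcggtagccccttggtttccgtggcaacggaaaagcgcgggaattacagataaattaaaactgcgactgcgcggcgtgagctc
FANCF: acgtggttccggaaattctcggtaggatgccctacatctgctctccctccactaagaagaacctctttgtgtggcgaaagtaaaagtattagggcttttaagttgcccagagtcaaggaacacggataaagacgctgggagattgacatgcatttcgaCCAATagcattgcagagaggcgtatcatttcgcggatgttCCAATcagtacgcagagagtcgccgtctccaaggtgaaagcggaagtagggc
The BRIP1 stretch holds 3 CCAAT matches and 1 TTTGAA match, PMS2 holds 3 CCAAT matches, XRCC3 5, BRCA1 1 and FANCF 2. CCAAT was thus present in printed genes on both sides of the comparison, and TTTGAA in BRIP1 only. Because 3 of the genes were added after their values were seen, and the PMS2 and BRCA1 starts were picked by CCAAT matches, this is partly built in. BARD1 and FANCG, both lower and not printed, had 0 CCAAT matches in their windows. RefSeq windows of 300 bases (250 before to 50 after a start) were found for 34 of the 37 genes, and CCAAT on either strand was in a window of 16 of them (47.1%), against 43.0% of the 10425 genes kept that have a window. By outcome, CCAAT was in 6 of the 8 genes with an interval below 1, in 4 of 4 with an interval above 1 and in 6 of the other 22. An E2F match, TTTGGCGC or TTTCGCGC on either strand, was found in 3 of 34 (8.82%), against 2.54% of genes kept. The 3 were EXO1, FANCC and MSH3, and the intervals of all 3 span a ratio of 1. TTTGAA was in 3 of 34 (8.82%, against 13.6%), and the core of the hypoxia response element, ACGTG or GCGTG on either strand, in 27 of 34 (79.4%, against 69.9%). A match is a description of the letters and not a bound site.

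Among the genes that bring the recombinase to the break, both partners of the BRCA1 heterodimer were lower in hypoxia and PALB2 was higher. BARD1, which BRCA1 needs for its ubiquitin ligase activity, had 264 counts in normoxia and 232 in hypoxia, a log2 ratio of -0.28 (95% counting interval -0.54 to -0.02). BRCA1 (chromosome 17, 43044295 to 43170327) had 584 and 539, a log2 ratio of -0.21 (-0.38 to -0.04). PALB2, the bridge between BRCA1 and BRCA2, had 325 and 405, a log2 ratio of 0.22 (0.01 to 0.44). The PALB2 and BARD1 intervals both end close to 0. BRCA2, which loads the recombinase onto single strands, had 84 and 94 counts, at 0.07 on the log2 scale (-0.37 to 0.51). A difference of the size seen in BRCA1 could not have been detected at that count. BRCA2 also had the lowest level per length of all 37 genes, at 0.398 FPKM in normoxia and 0.415 in hypoxia.

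Of the 5 recombinase paralogs, 1 was lower and the intervals of 4 span a ratio of 1. XRCC3, which pairs with RAD51C, had 937 counts in normoxia and 832 in hypoxia, a log2 ratio of -0.26 (-0.40 to -0.13). RAD51C had 576 and 549, a log2 ratio of -0.16 (-0.33 to 0.01), an interval that just reaches 0. The other 3 paralogs lay nearer to 0 or had few counts: RAD51B had 110 and 130 (0.15, -0.23 to 0.53). RAD51D was at -0.02 (-0.20 to 0.16) and XRCC2 at 0.02 (-0.20 to 0.23). The direct difference between XRCC3 and the other paralogs was not tested.

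Among the partners of strand exchange, RAD51AP1, which stimulates strand invasion, had 248 counts in normoxia and 214 in hypoxia, a log2 ratio of -0.31 (-0.58 to -0.04). It was the second lowest of the 37, at 1.24-fold lower. RAD54L, the motor protein that remodels the invading filament, had 394 and 359 counts (-0.23, -0.44 to -0.02). Its relative RAD54B had 140 and 154 (0.04, -0.29 to 0.39), and the wide interval of RAD54B covers the value of RAD54L. RAD52, which anneals single strands, had 304 and 368 counts, the highest ratio of this group at 0.18 (-0.04 to 0.41).

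The 5 genes of end processing and of the last steps of recombination in the set described here showed no interval to either side of 1. RBBP8 (CtIP), which starts resection, was lowest with 481 counts in normoxia and 476 in hypoxia (-0.11, -0.29 to 0.08). NBN, the signalling subunit of the break-sensing complex, was highest with 715 and 799 (0.07, -0.08 to 0.22). RAD50, the ATPase of the same complex, lay between them with 799 and 841 counts (-0.02, -0.16 to 0.12). EXO1, a resection nuclease that also serves mismatch repair, had 453 and 457 (-0.08, -0.27 to 0.11), and the helicase BLM had 136 and 151 (0.06, -0.29 to 0.40). This holds for the set only. Among the further recombination genes described below, MRE11 was lower at -0.14 (-0.28 to -0.01). EME1 was also lower at -0.29 (-0.54 to -0.04), and RMI1 was higher at 0.24 (0.01 to 0.47).

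The Fanconi core complex was split. FANCG, an adaptor inside the complex, had 445 counts in normoxia and 406 in hypoxia, a log2 ratio of -0.23 (-0.42 to -0.03). FANCA, its direct partner, had 914 and 841 (-0.21, -0.35 to -0.08). FANCF, an adaptor encoded by a gene of 3291 bases (chromosome 11, 22622533 to 22625823), had 389 and 498, a log2 ratio of 0.26 (0.07 to 0.46), the highest of the 37. FANCF and FANCG thus had intervals on opposite sides of 0, although their products belong to the same complex. The other 5 core genes had intervals that span 1, from FANCM, the translocase that anchors the complex, at -0.01 (-0.31 to 0.29) to FANCC at 0.12 (-0.06 to 0.31). FANCL, the ubiquitin ligase of the complex, had 447 and 484 counts (0.02, -0.17 to 0.21), while FANCE was at 0.03 and FANCB at 0.08.

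Downstream of the core complex all 3 genes lay below 0, as did 6275 of the 12725 genes kept. BRIP1 (chromosome 17, 61679139 to 61863528), the helicase that binds BRCA1 and is also called FANCJ, had 297 counts in normoxia and 230 in hypoxia, and 1.42 and 1.02 FPKM. Its log2 ratio was -0.46 (-0.72 to -0.21), or 1.38-fold lower, the largest difference among the 37 in either direction. FANCI had 1036 and 1021 counts (-0.11, -0.24 to 0.01) and FANCD2 had 1025 and 1020 (-0.10, -0.23 to 0.03). The target pair of the core complex therefore gave nearly equal raw counts in both libraries and nearly equal ratios.

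Of the 4 mismatch repair genes, only PMS2 had an interval that excludes 1. MSH6, which recognises single mismatches, was the best counted of the 37, with 2603 counts in normoxia and 2809 in hypoxia and a log2 ratio of 0.02 (-0.06 to 0.09). As a plain ratio its interval ran from 0.959 to 1.07, the narrowest of the 37. MSH3, which recognises larger loops, had 329 and 350 (-0.00, -0.22 to 0.22), and PMS1 had 421 and 456 (0.02, -0.17 to 0.22). PMS2, the nuclease subunit, had 825 and 1039 counts, a log2 ratio of 0.24 (0.11 to 0.37). RefSeq holds 15 genes or pseudogenes named as copies of PMS2, and the value is uncertain because reads may be shared with them.

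All 4 checkpoint kinase genes lay above 0, as did 6450 of the 12725 genes kept. The whole interval lay above 0 for 1 of the 4, against 15.0% of genes kept. ATM, the kinase that responds to double-strand breaks, had 488 counts in normoxia and 607 in hypoxia, a log2 ratio of 0.22 (0.05 to 0.40). ATR, which responds to stalled forks, had 662 and 744 (0.08, -0.08 to 0.23). Their effector kinases were CHEK1 with 787 and 877 counts (0.06, -0.08 to 0.20) and CHEK2 with 542 and 590 (0.03, -0.14 to 0.20). The ATM interval overlaps those of the other 3 kinases, and CHEK2 has 6 pseudogenes named as copies.

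Levels per length spanned a wide range and kept much the same order in both libraries. MSH6 was highest, at 31.5 FPKM in normoxia and 31.7 in hypoxia. XRCC3 followed with 20.3 and 16.8, and RAD51C with 13.7 and 12.2. The lowest after BRCA2 were RAD51B with 0.672 and 0.740 FPKM and FANCB with 0.745 and 0.783. Within the BRCA1 heterodimer, BRCA1 stood at 4.63 and 3.98 FPKM and BARD1 at 2.67 and 2.19. The median over the 37 was 5.47 FPKM in normoxia and 5.22 in hypoxia, and no gene moved more than 5 places in the order, the move of BRCA1 from place 21 to 26.

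**Figure D2:**
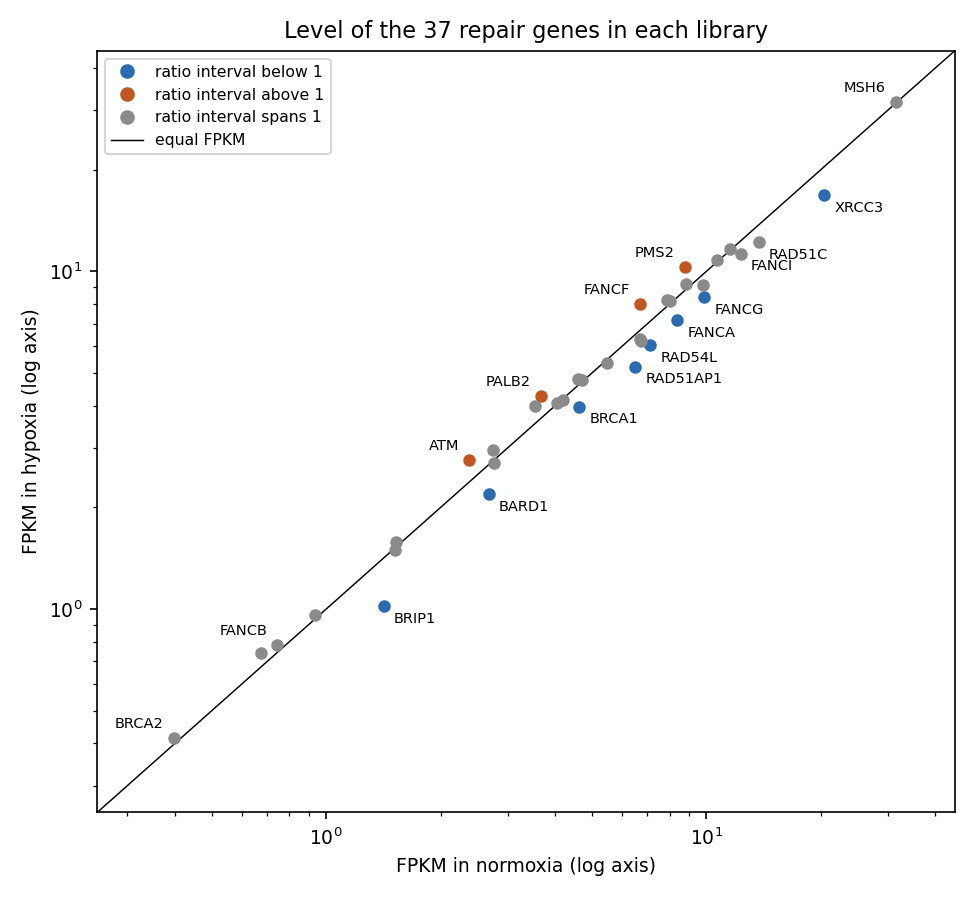
FPKM of each repair gene in normoxia (x axis) and hypoxia (y axis), both on log axes, 1 library each. The points lie close to the line of equal FPKM over the range from 0.398 (BRCA2) to 31.5 (MSH6) in normoxia, and BRIP1, at 1.42 and 1.02, lies farthest below it.

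The counting of overlapping genes bears on several of these values. The sources used here do not say whether reads were counted by strand. Of the 37 genes, 20 overlap another coding gene in RefSeq or have a copy named after them, including 5 of the 8 lower and 2 of the 4 higher. XRCC3 overlaps KLC1, RAD54L overlaps LRRC41 and FANCA overlaps ZNF276, each on the opposite strand, and ATM, which was higher, overlaps C11orf65 on the opposite strand. BRCA1 and RAD51AP1 have a pseudogene copy each. The lower genes without such an overlap or copy were BRIP1, BARD1 and FANCG, and the higher ones were PALB2 and FANCF. Of these neighbours, KLC1 was at 0.06 (-0.02 to 0.13), LRRC41 at 0.08 (-0.02 to 0.19) and ZNF276 at -0.02 (-0.18 to 0.15), and C11orf65 had 9 counts in normoxia and 18 in hypoxia. The part of shared reads in the values of the repair genes was not tested.

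Several repair genes start back to back with another gene. A start on the opposite strand within 1000 bases upstream was found for 15 of the 34 genes with a RefSeq window (44.1%), against 28.8% of genes kept. For 9 of these the neighbour also passed the filter. PMS2, at 0.24 (0.11 to 0.37), starts 166 bases from AIMP2, a subunit of the tRNA synthetase complex, which was at -0.08 (-0.17 to 0.01). The intervals of PMS2 and AIMP2 do not overlap, but the PMS2 value is uncertain because of its named copies. BRCA1, at -0.21, has an alternative start, at 43170327, 82 bases from NBR1, which was at 0.09 (0.02 to 0.17), again with no overlap. Counts are per gene, so the BRCA1 ratio cannot be assigned to that start, which is not the one whose sequence is shown. In the other 7 pairs the intervals overlap. ATM at 0.22 starts 429 bases from the histone gene regulator NPAT at 0.00 (-0.21 to 0.22). XRCC3 at -0.26 starts 359 bases from ZFYVE21 at -0.02 (-0.18 to 0.13).

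**Figure D3:**
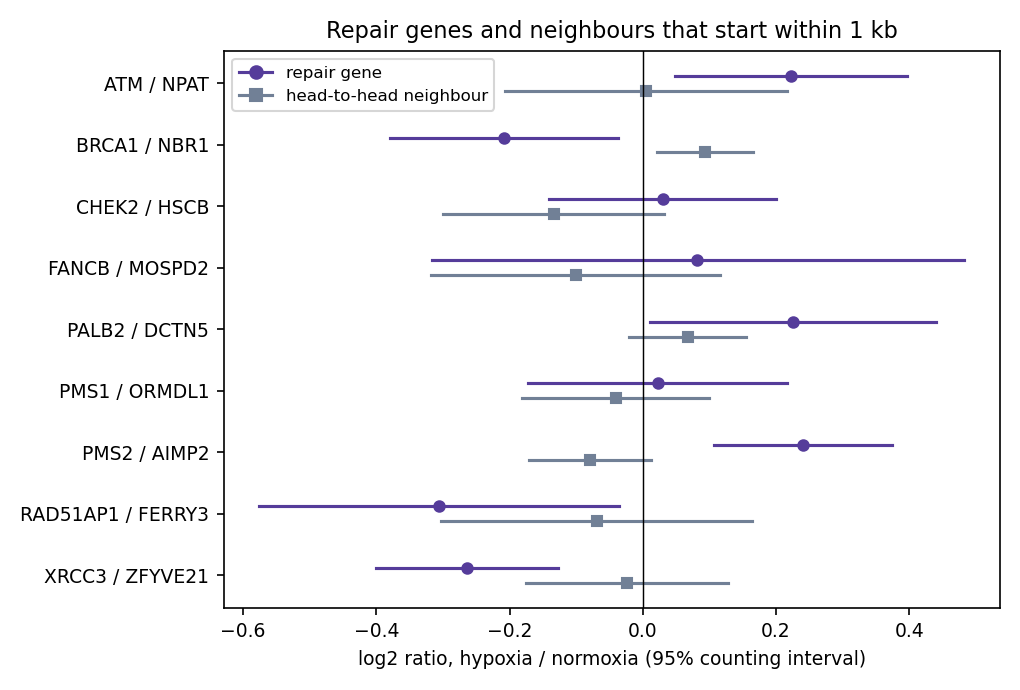
Log2 ratio, hypoxia over normoxia, with 95% counting intervals for the 9 repair genes (circles) that start within 1000 bases of a gene on the opposite strand and for that neighbour (squares), named on the y axis. The intervals of PMS2 and AIMP2, and of BRCA1 (paired by its alternative start) and NBR1, do not overlap.

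The other genes of these pathways also had small differences on both sides. By interval, 14.0% of all genes kept were lower and 15.0% higher. Of 33 further recombination genes 6 were lower (18.2%) and 2 higher (6.06%) by interval, with a median log2 ratio of -0.04. HROB, which recruits a helicase to recombination sites, was lowest at -0.51 (-0.81 to -0.21), and RPA2, a subunit of the single-strand binding protein, was among the lower ones at -0.23 (-0.38 to -0.08). The higher ones were BABAM2 at 0.16 (0.01 to 0.30) and RMI1 at 0.24 (0.01 to 0.47). Of 12 further Fanconi genes 3 were lower (25%) and 2 higher (16.7%), with a median of -0.01. UBE2T, the ubiquitin-conjugating enzyme that works with FANCL, had 443 counts in normoxia and 340 in hypoxia, a log2 ratio of -0.47 (-0.68 to -0.27), close to that of BRIP1. CENPX, a partner of FANCM, was at -0.40 (-0.59 to -0.21). WDR48, the cofactor of the enzyme that removes ubiquitin from FANCD2, was at 0.25 (0.12 to 0.38) and the nuclease FAN1 at 0.15 (0.02 to 0.28). USP1, that enzyme itself, was lower, with 859 counts in normoxia and 765 in hypoxia (-0.26, -0.40 to -0.12).

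Of 14 further mismatch repair genes, most of them shared with replication, 4 were lower (28.6%) and 1 higher (7.14%), with a median of -0.03. The shares over all genes kept were 14.0% and 15.0%. The polymerase subunit POLD1 was at -0.22 (-0.34 to -0.11) and the sliding clamp PCNA at -0.16 (-0.23 to -0.09). Of the clamp loader, the subunit RFC1 was higher at 0.15 (0.02 to 0.28) and RFC2 lower at -0.15 (-0.25 to -0.05). RFC3, RFC4 and RFC5 had intervals that span 0. Of 16 further checkpoint genes 3 were lower (18.8%) and 2 higher (12.5%), with a median of -0.02. The clamp subunits RAD9A at -0.30 (-0.38 to -0.22) and HUS1 at -0.21 (-0.39 to -0.04) were among the lower ones. RAD1, of the same clamp, was at -0.05 (-0.18 to 0.08). The ATM mediators TP53BP1 at 0.19 (0.10 to 0.28) and MDC1 at 0.13 (0.03 to 0.22) were the higher ones. Among 10 genes of non-homologous end joining 3 were lower (30%) and 2 higher (20%), with a median of 0.01. These genes ran from LIG4, which seals the ends, at -0.54 (-0.93 to -0.16) to NHEJ1, which helps align them, at 0.27 (0.09 to 0.46). The kinase PRKDC was at 0.24 (0.19 to 0.30). Of 20 genes of base and nucleotide excision repair 1 was lower (5%), FEN1 at -0.17 (-0.27 to -0.07). The 6 higher ones (30%) included ERCC6 at 0.31 (0.16 to 0.46) and LIG3 at 0.22 (0.07 to 0.36).

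Cell cycle markers also differed between the libraries. Of 19 S phase markers 11 were lower (57.9%) and 0 higher, against 14.0% and 15.0% of all genes kept. Their median log2 ratio was -0.12, and E2F1 at -0.48 (-0.61 to -0.34) and CDC45 at -0.39 (-0.54 to -0.23) were lowest. Of 18 mitotic markers 3 were lower (16.7%) and 7 higher (38.9%), with a median of 0.04. AURKB at -0.16 (-0.24 to -0.08) was among the lower ones and KIF20A at 0.22 (0.14 to 0.29) among the higher. The range of the S phase markers, -0.48 to 0.10, held all the lower repair genes. It also held most repair genes whose intervals span 1, so lying within it does not set the lower genes apart. Whether a different share of cells in S phase has a part in the lower values was not tested, and fewer cells in S phase and less RNA per cell cannot be told apart in bulk RNA.

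**Figure D4:**
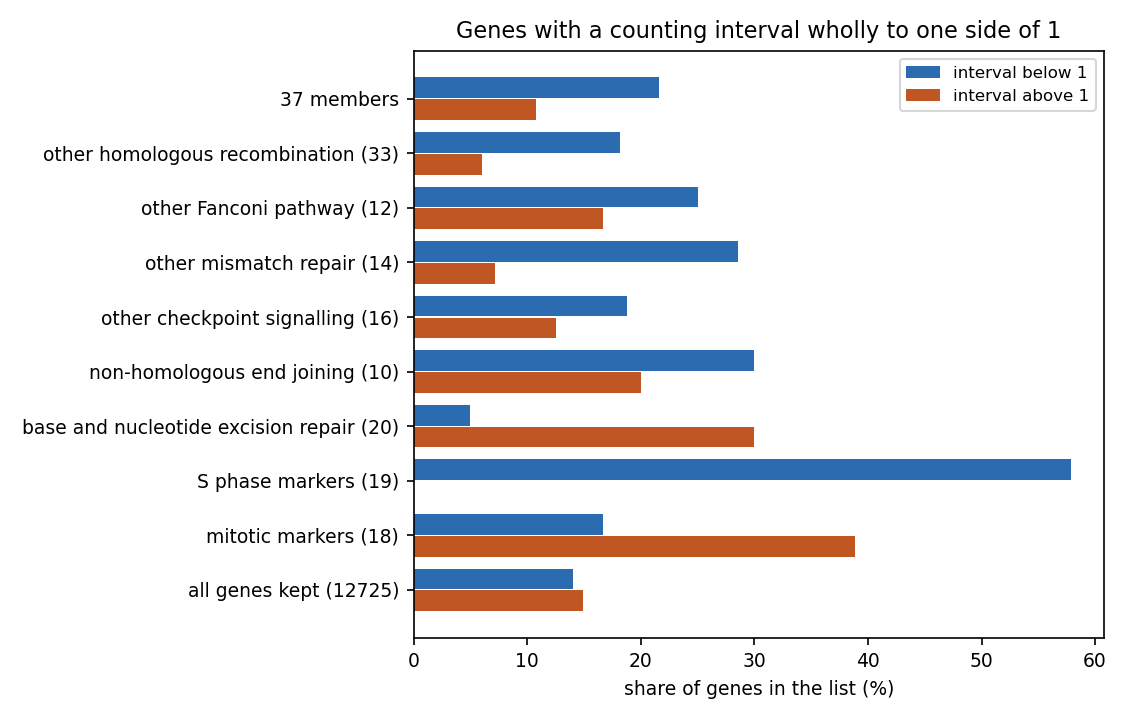
Share of genes, in percent, whose 95% counting interval lies wholly below (blue) or above (orange) a ratio of 1, for the 37 repair genes, the related lists (number of genes in brackets) and all 12725 genes kept. The repair genes stand at 21.6% and 10.8%, the S phase markers at 57.9% and 0%, and all genes at 14.0% and 15.0%.

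Gene length moved with the ratio to a small degree. The 37 genes are longer than most, with a median of 5061 bases against 4007 over all genes kept, as implied by the authors' counts and FPKM. Across the 37, Spearman's rho between gene length and the log2 ratio was 0.28 (Pearson's r 0.22), and across all 12725 genes kept it was 0.21 (0.13). These are descriptions across genes of the same 2 libraries, and genes are not independent replicates. With the trend on length removed, 7 of the 37 were lower and 2 higher, against 13.1% and 13.8% of all genes kept. BRIP1, BRCA1, BARD1, XRCC3, RAD54L, FANCA and FANCI were on the lower side, and FANCF and PMS2 on the higher. RAD51AP1 at -0.27, FANCG at -0.20, PALB2 at 0.21 and ATM at 0.16 then had intervals that span 0.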

How the data were processed

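Human H1975 cells were measured by RNA-seq in 1 normoxia and 1 hypoxia library. 2 miRNA-seq libraries of the same series were not used here. The labels' protocols give TRIzol extraction and a stranded mRNA kit. Per the submitters' processing notes the build was GRCh38 and the tools included Trimmomatic, HISAT2, HTSeq, Cufflinks and Bowtie, with neither version nor role. The authors deposited raw read counts per gene, and these were the main values. The FPKM that the authors deposited equal the counts divided by the table total and a whole gene length, which was recovered from them, and were used for levels between genes.

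Counts were scaled by TMM over the whole table in edgeR 4.0.16 (R 4.3.3), and 1 read equals a CPM of 0.0565 in normoxia and 0.0530 in hypoxia. Ratios and exact conditional Clopper-Pearson 95% intervals were computed in Python 3.11.15 with scipy 1.17.1, and the length trend with lowess (span 0.3) in statsmodels 0.14.6. "Lower" or "higher" of a gene means that this interval excludes a ratio of 1. The interval procedure was run on simulated counts with known folds and counting error only. That setting is the one the interval assumes, so it cannot show how the interval behaves with spread between cultures. With 1 library per group no p-value was computed. The filter kept genes that reached a CPM of 1 in either library. The alternatives were scaling by upper quartile, by total counts or by DESeq2 (1.42.0) size factors, FPKM plus 1 or 0.1 on the log2 scale, a filter at a CPM of 5 or none, the length trend removed, and no genes with overlaps or copies. Coordinates and sequences are from RefSeq GRCh38.p14, where all 37 genes matched by Entrez identifier, and promoter windows were found for 34. The genes and lists were chosen with earlier results of these data known. Named in full were genes past a log2 ratio of 0.32, the extremes of each role and the highest and lowest FPKM, and from each further list up to 2 genes on each side by the interval bound nearest to 1. The comparison with back-to-back neighbours, and the genes MRE11, EME1 and USP1, were added after the values were seen.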

Additional observations from a re-analysis of the deposited data

How the results depend on the processing

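DESeq2 size factors, upper quartile scaling, no filter and a filter at a CPM of 5, which drops BRCA2, left the same 8 genes lower and the same 4 higher. Over all genes the shares under these settings ran from 11.8% to 15.1% lower and from 12.5% to 16.3% higher. Total counts added RAD51C (-0.17) to the lower side and gave 1 higher gene among the further recombination genes. With that scaling 15.5% of all genes kept were lower and 13.4% higher. The median over the 37 lay between 0.00 and 0.02 under every alternative, FPKM with either pseudocount included, and no called gene changed sign. With the length trend removed, 2 of the 37 were higher, against 13.8% of all genes kept. The further lists then had 1 higher (Fanconi), 3 higher (mismatch repair) and 1 higher (checkpoint). Without genes that overlap a coding gene or have copies, 3 of 17 were lower and 2 higher. Over all genes kept, with none dropped for overlaps or copies, the shares were 14.0% and 15.0%. The cause of these changes was not tested. No paired analysis was possible because each condition had 1 library, and for the same reason no replicate could be left out. Depth limits the genes with few counts: interval widths on the log2 scale ran from 0.15 (MSH6) to 0.88 (BRCA2), with a median of 0.38.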
